A study of Mus musculus with 6 samples.

Results

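Amino acid transporter genes were described in pancreatic ductal adenocarcinoma (PDAC) organoids from mouse in which the Notch ligand gene Jag1 was knocked down. The genes were chosen by symbol, as members of the solute carrier families Slc1a, Slc3a, Slc6a, Slc7a, Slc36a, Slc38a and Slc43a without pseudogenes and antisense genes. These families were chosen with earlier results of these data known. Of 63 such protein-coding genes in GENCODE M21, 28 were measured among the 14254 genes of the deposited table and all 28 passed the filter on low values, while 35 were not analysed here. Slc7a6os, whose symbol also begins this way, is a separate gene on the opposite strand from Slc7a6 and was left out.

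RNA was sequenced from the line KPF_5.3G grown as organoids, small tumour cell clusters in a gel. The shCtrl group (3 samples, genotype given as WT) carried a control short hairpin RNA, and the shJag1 group (3 samples, genotype given as Jag1 knockdown) carried the lentiviral hairpin numbered 3 against Jag1. All 6 samples were grown in the same medium, which holds EGF, FGF-10, gastrin, R-spondin-1, Noggin, nicotinamide and 1.25 mM N-acetylcysteine, a cysteine donor. The samples thus model 1 line and 1 hairpin, and the p-values measure only the spread between these samples.

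Cells take up amino acids through carriers that differ in substrate and in driving force. Sodium-coupled carriers such as those of the Slc1 and Slc38 families concentrate glutamine and small neutral amino acids, and exchangers then trade these for larger ones. The exchangers of the Slc7 family that work as light chains need a heavy chain of the Slc3 family to reach the membrane, whereas the cationic carriers of the same family work without one. In tumours of the pancreas this traffic is known for feeding glutathione synthesis with cystine and for supplying glutamine.

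The libraries held 22268997 to 35172593 reads on genes and spike-in RNAs. Values are normalised read counts of controls 1, 2 and 3 and of knockdowns 1, 2 and 3, and log2 changes are knockdown minus control after 1 was added to each count. Jag1 itself counted 412, 983 and 847 in the controls and 226, 321 and 557 in the knockdowns, so each knockdown was lower than the control of its number while the groups overlapped. Its change was -1.03 (SE 0.45, adjusted p = 0.691 in limma), and -1.02 (SE 0.27, adjusted p = 0.00628) in DESeq2 with the replicate number as a term. Its call was lost without pair 2 (adjusted p = 0.738) and without pair 3 (adjusted p = 0.0894). By exact permutation over the samples, two-sided, p was 0.2, and the smallest p this design allows is 0.1. The labels do not say that libraries of the same number are pairs. They were treated as pairs because their deviations from the group means correlated (r = 0.68, 0.57 and 0.44 for numbers 1, 2 and 3). The crossed numbers 2 and 3 also correlated (r = 0.385 and 0.365). Pairs 2 and 3 were thus less clearly told apart than pair 1. A model that holds the replicate term is called the blocked fit here, and its calls rest on this pairing, which was read from the same data. The mitochondrial share of gene reads was 0.595% to 2.03% in the controls and 0.555% to 1.20% in the knockdowns. Both replicate 1 libraries stood apart from the other 4, so results that rest on them are also given without that pair. The blocked DESeq2 fits without a pair were added after the data were seen. Each keeps 2 libraries per group, so small adjusted p values from them rest on few libraries.

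Of the 6 epithelial markers, all 6 were measured, and their summed normalised counts ran from 132881 to 176787 in the controls and from 176142 to 459883 in the knockdowns. Epcam, Krt8 and Krt19 rose in the blocked DESeq2 fit, which called 4.57% of all tested genes higher, and the other 3 did not pass. The limma changes were above 0 for 5 of the 6 markers and below 0 for 1, at -0.18. Of the other cell types, 1 of 5 acinar markers (Cela1, 6.14 to 47.4 over all libraries), 0 of 5 endocrine, 2 of 6 fibroblast (28.9 to 45.5 summed), 1 of 4 endothelial (Tek, 6.14 to 62.1) and 1 of 5 immune markers were measured. The immune marker was Cd68, with 98.6, 136 and 111 normalised counts in the controls and 117, 988 and 400 in the knockdowns. Cd68 also rose in the blocked DESeq2 fit. Whether these shifts had a part in the results below was not tested, and in bulk samples fewer cells of a type and less RNA per cell cannot be told apart.

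The cystine exchanger Slc7a11, the cationic carrier Slc7a2 and the large neutral carrier Slc43a2 lay below the control of the same number in all 3 knockdowns, and they were called in DESeq2 with the replicate term. In limma on all 6 libraries and in edgeR no member passed an adjusted p of 0.05 in either direction, against 0.0% of the 13997 tested genes higher and 0.0% lower. At an unadjusted p under 0.05, 2 members were below it in limma and 3 in edgeR, against 7.29% of all tested genes in each, and the lowest adjusted p of a member was 0.604 and 0.611. In the blocked DESeq2 fit 3 of 28 members fell, Slc7a2, Slc7a11 and Slc43a2, and 0 rose, against 2.58% of all tested genes lower and 4.57% higher. Slc7a2 and Slc7a11 were among 3 genes named when the set was chosen, with earlier results of these data known. The count is thus a description of the set and no test of it. DESeq2 without the replicate term called 2 lower, Slc7a2 and Slc43a2, where it called 0.522% of all genes lower and 0.722% higher. With the replicate term no member passed in limma or edgeR, where each called 0.0143% of all genes higher and 0.0% lower, and the lowest adjusted p of a member was 0.149 and 0.182. Without pair 2 the blocked DESeq2 fit called 0 members, against 0.25% of all genes lower and 0.457% higher, and without pair 3 it called only Slc7a11, against 0.257% and 0.607%.

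Over the 28 members the median log2 change was -0.15, with 17 below 0 and 11 above, whereas the median of all tested genes was 0.00. The changes ran from -2.74 for Slc7a2 to 1.16 for Slc1a1. Within replicate numbers the members' median was -0.06, -0.37 and 0.10 for numbers 1, 2 and 3. A total of 8 members were lower in all 3 pairs, against 19.7% of all genes, and 4 were higher in all 3, against 22.3%. The groups did not overlap for 2 members that were lower, Slc7a2 and Slc43a2, where 5.44% of all genes were lower in this way, and for 0 members that were higher, against 6.29%. After scaling by the spike-in RNAs, which moved the median of all genes to -0.18, the members' median was -0.33, with 22 below 0 and 6 above, and limma called Slc7a2 lower (adjusted p = 0.0111) and none higher, against 0.279% and 0.55% of all genes. Limma also called Slc7a2 lower, and none higher, without control 1, against 0.6% and 1.5% of all genes.

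**Figure D1:**
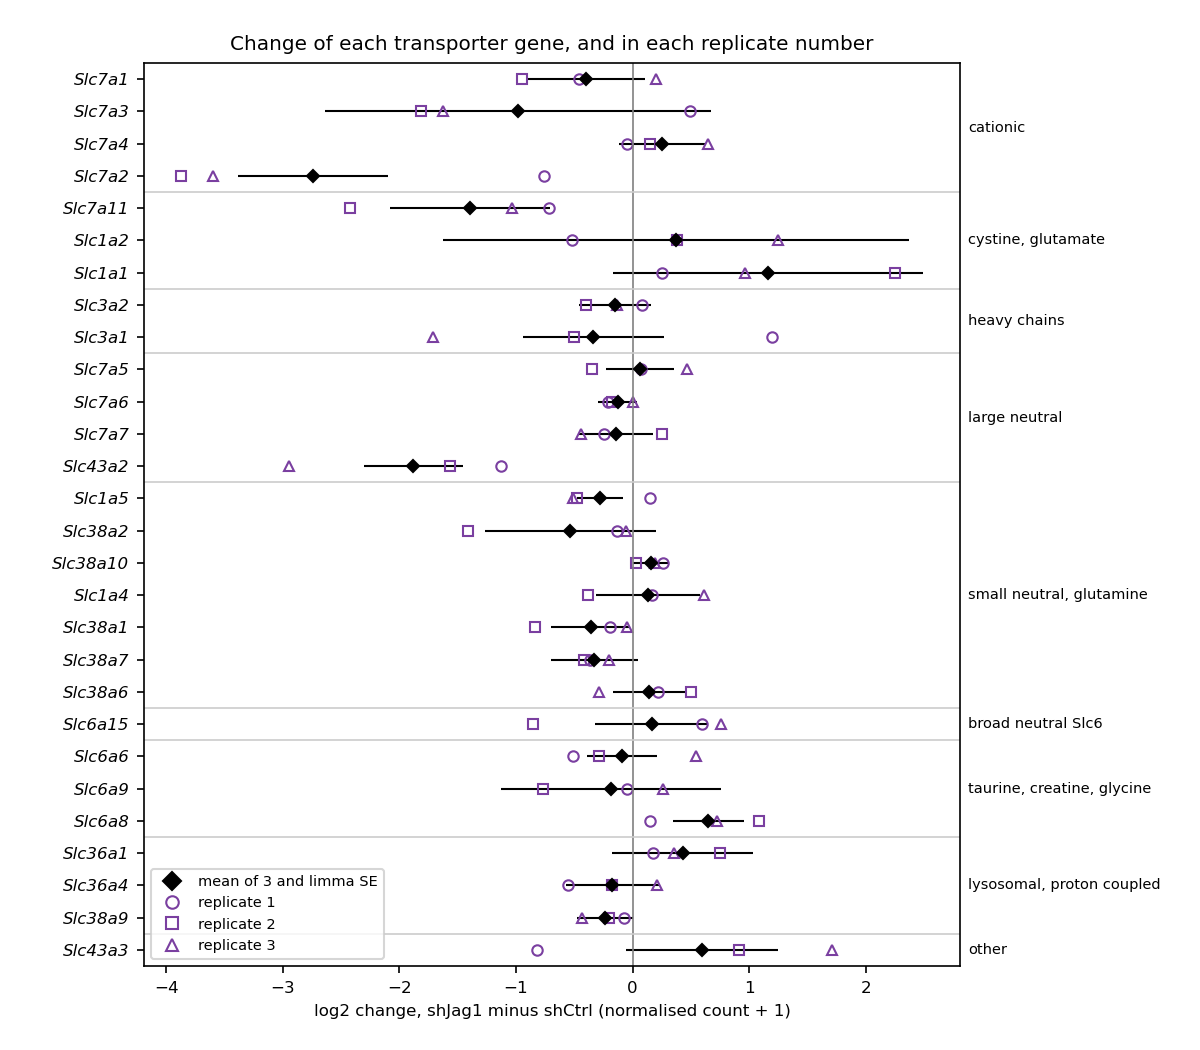
Log2 change (horizontal axis, normalised count plus 1, shJag1 minus shCtrl) of the 28 transporter genes, grouped by substrate class, with the mean of 3 and its limma standard error as a diamond and the difference within each replicate number as open symbols. Slc7a2 and Slc43a2 lie furthest to the left, at -2.74 and -1.88, while Slc7a3 and Slc1a2 have wide bars.

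Cystine enters cells through xCT, the exchanger encoded by Slc7a11, which gives out glutamate in return and supplies cysteine for glutathione. Slc7a11 (chromosome 3, 49892526 to 50443614, minus strand, GRCm38) counted 1605, 4561 and 6793 under the control hairpin and 979, 850.3 and 3308 under the Jag1 hairpin. Each knockdown was lower than the control of its number, at 60.99%, 18.6% and 48.7% of it, but knockdown 3 lay above control 1, so the groups overlapped. The means were 4319 ± 2602 and 1712 ± 1383 (SD, n = 3 each), and limma put the difference at -1.39 (SE 0.69, adjusted p = 0.712). In the blocked fits the adjusted p was 0.00122 in DESeq2 (log2 change -1.38, SE 0.32), 0.150 in limma and 0.185 in edgeR. DESeq2 with the replicate term gave adjusted p values of 1.31e-07 without pair 1, 0.165 without pair 2 and 0.0188 without pair 3.

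The RefSeq promoter window of Slc7a11 runs from 250 bases before to 50 after the start site. It is shown as the promoter of a member called in blocked DESeq2 that held a searched motif. It spans chr3:50443564-50443863 (minus strand, GRCm38.p6), and capitals mark matches to TGATGNAAN, the C/EBP-ATF response element that Atf4 dimers bind in genes of the amino acid shortage response, searched on both strands.
Slc7a11: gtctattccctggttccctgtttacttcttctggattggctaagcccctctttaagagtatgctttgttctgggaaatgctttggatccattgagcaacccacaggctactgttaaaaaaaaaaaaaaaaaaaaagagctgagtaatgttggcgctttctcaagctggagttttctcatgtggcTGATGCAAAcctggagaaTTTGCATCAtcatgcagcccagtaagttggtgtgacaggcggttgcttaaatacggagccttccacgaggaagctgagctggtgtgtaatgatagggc
The window held 2 matches that did not overlap, the first at 66 bases and the second, on the other strand, at 48 bases before the start site. This motif was found in 1299 of 32851 promoter windows (3.95%). The 18 members with a sequence had 27 windows, some genes having several, and 4 of the 27 held it, from Slc7a11, Slc1a4 and Slc7a7. The Slc7a7 windows with this motif overlap and share a match, and by gene 3 of 18 members held it. The antioxidant response element core, TGACNNNGC on either strand, was not among the letters of this window. It was found in 12.4% of all windows and in 7 of the 27 member windows, from 5 members (Slc7a1, Slc7a6, Slc6a9, Slc36a1 and Slc38a2). The Slc7a6 windows overlap and hold the same match, and by gene this was 5 of 18. The matches to both motifs describe the letters of these windows only.

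The other 2 members of the cystine, glutamate and aspartate class, Slc1a2 and Slc1a1, encode sodium-coupled glutamate carriers. Slc1a2 counted 1328, 19.5 and 17.4 in the controls and 928, 25.8 and 42.8 in the knockdowns. Both replicate 1 libraries were high and the other 4 were low, whichever hairpin they carried. The log2 change was 0.37 (SE 1.998, adjusted p = 0.984 in limma), and it was below 0 in edgeR (-0.47) and in DESeq2 (-0.45). Slc1a1, chosen after its values were seen, showed the same division, with 76.2, 2.30 and 4.98 against 91.2, 14.7 and 10.7. Its exons overlap those of 4430402I18Rik on the opposite strand and the library kit does not mark strand.

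Arginine, lysine and ornithine enter through the cationic carriers Slc7a1, Slc7a2 and Slc7a3. Slc7a2 (chromosome 8, 40862396 to 40922308, plus strand) counted 49.7, 176 and 206 in the controls and 28.9, 11.1 and 16.0 in the knockdowns. The lowest control lay above the highest knockdown, and the knockdown values rested on 33, 9 and 21 reads. At least 473 exon bases are shared with Gm26584 on the opposite strand. The means were 144 ± 82.7 and 18.7 ± 9.23 (SD, n = 3 each), and limma put the difference at -2.74 (SE 0.64, adjusted p = 0.604). The blocked DESeq2 fit gave -2.84 (SE 0.66, adjusted p = 0.00109), and DESeq2 without the term gave an adjusted p of 0.00331, while the blocked fits of limma and edgeR gave 0.150 and 0.185. In pairs the knockdown held 58.2%, 6.29% and 7.81% of its control, and the adjusted p of the blocked DESeq2 fit was 7.77e-11 without pair 1, 0.236 without pair 2 and 0.286 without pair 3.

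Slc7a3 (X chromosome, 101079210 to 101086020, minus strand) counted 73.7, 3171 and 3717 in the controls and 104.4, 902 and 1204 in the knockdowns. Replicate 1 was low in both groups, and only there was the knockdown above its control, at 142% of it, against 28.4% and 32.4% in pairs 2 and 3. The log2 change was -0.98 (SE 1.66, adjusted p = 0.933 in limma) and missed the threshold in the blocked DESeq2 fit (-1.04, SE 0.40, adjusted p = 0.0924). With replicates 2 and 3 only, it fell by 1.72 on the log2 scale (adjusted p = 0.0094 in limma). Without pair 1 the blocked DESeq2 fit gave an adjusted p of 3.01e-13. These fits leave out the only pair in which the knockdown was higher, and the fit without pair 1 was added after the data were seen. Limma on replicates 2 and 3 called 3 members lower (Slc7a2, Slc7a3 and Slc43a2) and 1 higher (Slc6a8), against 3.57% and 6.04% of all genes. DESeq2 with the replicate term and without pair 1 called 4 members lower, the same 3 and Slc7a11, and 1 higher, again Slc6a8, against 6.23% and 8.97%.

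Slc7a1, the widely expressed cationic carrier, counted 3530, 6755 and 7676 in the controls and 2567, 3497 and 8832 in the knockdowns. Knockdowns 1 and 2 were below their controls and knockdown 3 above its own, and the log2 change of -0.40 (SE 0.51, adjusted p = 0.899 in limma) passed no test. Slc7a4, a related gene for which no transport of cationic amino acids is settled, changed by 0.25. The 4 measured members gave the cationic class a median log2 change of -0.69 (-0.25, -1.38 and -0.71 in pairs 1, 2 and 3). In the blocked DESeq2 fit 1 of 4 was called lower, against 2.58% of all tested genes.

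**Figure D2:**
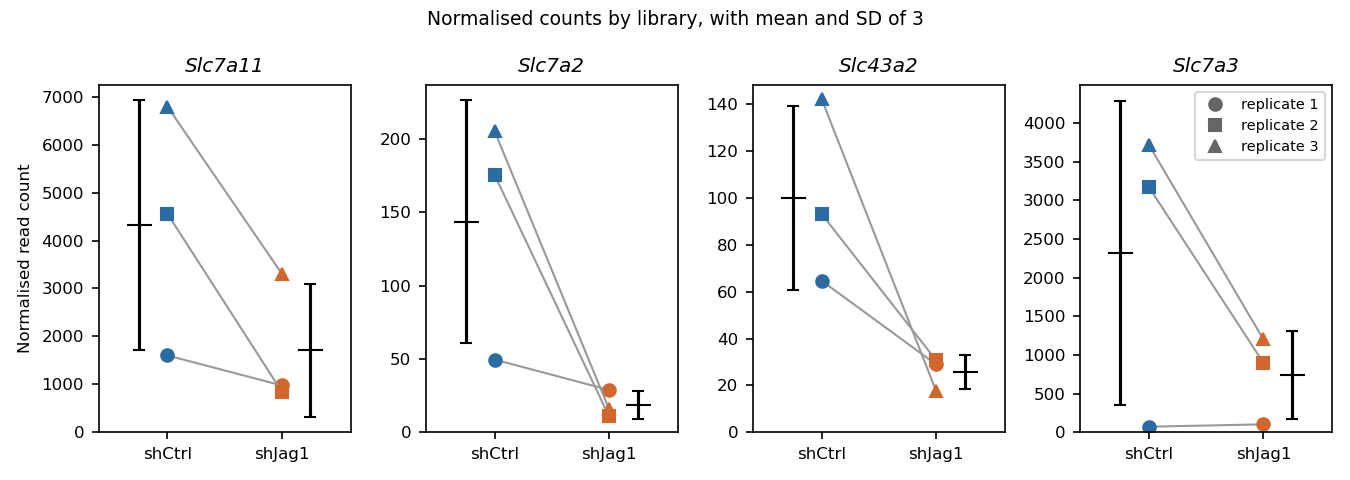
Normalised read counts (vertical axis) of Slc7a11, Slc7a2, Slc43a2 and Slc7a3 in each library, with a grey line joining libraries of the same replicate number and the mean and SD of 3 beside each group. The lines fall in all 3 numbers for Slc7a11, Slc7a2 and Slc43a2, while Slc7a3 in replicate 1 starts at 73.7 and ends at 104.4.

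Set per length, as reads per kilobase of exon per 1000000 gene reads, the sum of Slc7a1, Slc7a2 and Slc7a3 was 13.2, 52.3 and 60.7 in the controls and 9.76, 19.2 and 40.6 in the knockdowns. Slc7a1 made up 92.5% of it in control 1 and 87.9% in knockdown 1. In replicates 2 and 3 Slc7a3 held 58.1% and 58.8% of the sum in the controls and 43.9% and 29.3% in the knockdowns. Slc7a2, the member with the largest change, was never more than 1.64% of this sum.

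Heavy chains carry the exchangers to the membrane. Slc3a2 (4F2hc, also known as CD98), the partner of Slc7a5, Slc7a6, Slc7a7 and Slc7a11, counted 5713, 9525 and 11203 in the controls and 6035, 7235 and 10212 in the knockdowns. The groups overlapped over most of their range, and the log2 change was -0.15 (SE 0.31, adjusted p = 0.948 in limma and 0.738 in blocked DESeq2). Slc3a1, the heavy chain of the carrier that recovers cystine in kidney and gut, was low at 7.46 to 32.4, and its exons overlap those of Prepl on the opposite strand by up to 601 bases.

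Large neutral amino acids such as leucine are exchanged by Slc7a5 (LAT1), the main light chain of this set. Slc7a5 counted 6165, 6531 and 7836 in the controls and 6472, 5130 and 10854 in the knockdowns, and the highest and the lowest value both came from knockdowns. Its log2 change was 0.06 (SE 0.29, adjusted p = 0.979 in limma). Slc7a6, which exchanges cationic for neutral amino acids, ran from 1523 to 1960 with a change of -0.13 (SE 0.17, adjusted p = 0.902 in limma). Slc7a7, which does the same, ran from 617 to 1342 with a change of -0.14, and shares at least 232 exon bases with Oxa1l on the opposite strand.

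Slc43a2 (LAT4), which passes large neutral amino acids by facilitated diffusion and needs no heavy chain, was the third member called in blocked DESeq2. Slc43a2 (chromosome 11, 75531694 to 75577575, plus strand) counted 64.6, 93.0 and 142 in the controls and 28.9, 30.7 and 17.6 in the knockdowns. All 3 knockdowns lay below all 3 controls, on 23 to 33 reads each. At least 672 of its exon bases are shared with the antisense gene Gm45606, whose reads this library kit cannot tell apart. The means of 99.9 ± 39.1 and 25.7 ± 7.13 (SD, n = 3 each) differed by -1.88 (SE 0.43, adjusted p = 0.604 in limma). DESeq2 gave an adjusted p of 0.0117, or 0.0106 with the replicate term (-1.91, SE 0.54), and the blocked fits of limma and edgeR gave 0.149 and 0.182. Without pair 1, 2 or 3 the blocked DESeq2 fit gave 0.0017, 0.291 and 0.721.

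The Slc43a2 window at the upstream of its 2 RefSeq start sites, chr11:75531444-75531743 (plus strand, GRCm38.p6), is shown. The reason is that Slc43a2 was called in DESeq2, its groups did not overlap and a sequence was available.
Slc43a2: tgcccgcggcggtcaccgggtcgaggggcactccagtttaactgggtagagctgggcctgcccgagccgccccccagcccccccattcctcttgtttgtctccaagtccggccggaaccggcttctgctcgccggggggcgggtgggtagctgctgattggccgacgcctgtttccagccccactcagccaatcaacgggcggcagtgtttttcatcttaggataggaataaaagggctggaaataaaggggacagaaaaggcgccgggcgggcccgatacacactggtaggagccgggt
Neither motif was found in this window or in the one at the downstream start site, so no letters are in capitals.

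**Figure D3:**
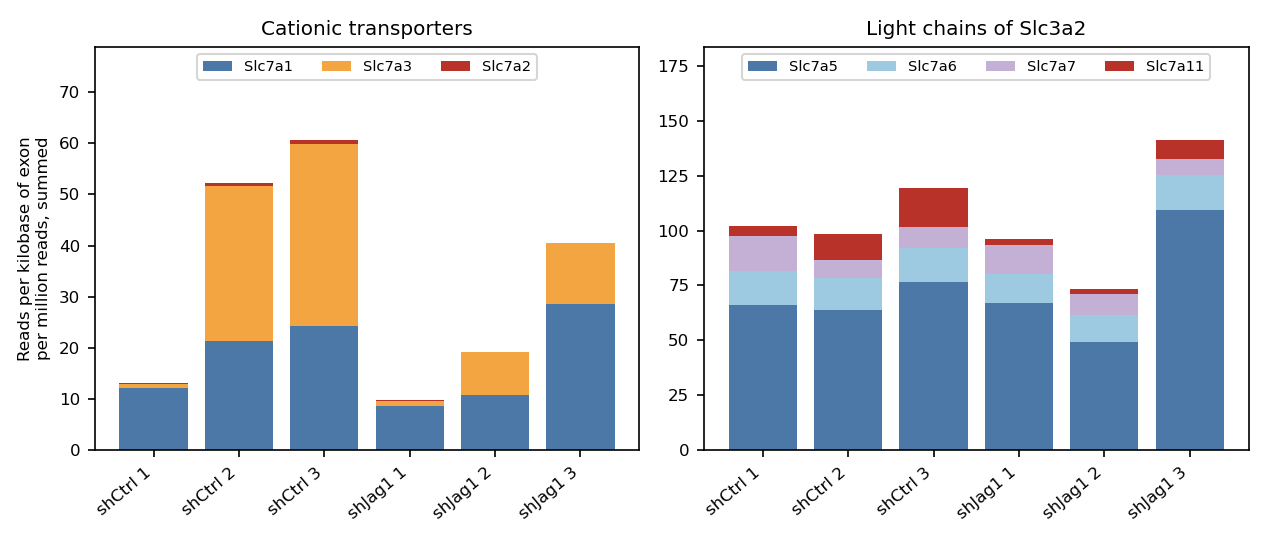
Summed reads per kilobase of exon per 1000000 gene reads (vertical axis) of 3 cationic carriers and of the 4 light chains that pair with Slc3a2, stacked by gene for each library. Slc7a5 makes up 64.4% to 77.4% of the light chains in every library, and the Slc7a11 segment is 4.49% to 14.9% in controls and 2.82% to 6.29% in knockdowns.

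On this per-length scale the 4 light chains that pair with Slc3a2 summed to 102, 98.4 and 119 in the controls and to 96.0, 73.3 and 141 in the knockdowns. Slc7a11 made up 4.49%, 12.1% and 14.9% of them in the controls and 2.82%, 2.95% and 6.29% in the knockdowns. Slc7a5 made up 64.7%, 64.9% and 64.4% in the controls and 70.1%, 66.9% and 77.4% in the knockdowns, each above every control. A lower Slc7a11 share leaves more of the sum to the rest. The level of Slc7a5 itself overlapped, at 66.1, 63.8 and 76.7 in the controls and 67.2, 49.0 and 109 in the knockdowns. The level of Slc3a2 was 0.63 to 0.994 of that of its light chains in the controls and 0.686 to 0.991 in the knockdowns. These shares are descriptions and were not tested.

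Glutamine and small neutral amino acids enter through Slc1a5 (ASCT2) and the Slc38 carriers, of which Slc38a2 (SNAT2) is known to be induced when amino acids run short. Slc1a5 counted 6931, 9382 and 10463 in the controls and 7675, 6748 and 7342 in the knockdowns, with the groups overlapping, for a change of -0.28 (SE 0.20, adjusted p = 0.810 in limma). Slc38a2 counted 4404, 20090 and 18332 in the controls and 4010, 7534 and 17601 in the knockdowns. Both replicate 1 libraries and knockdown 2 were low and the other 3 high, and the change of -0.54 (SE 0.73) had an adjusted p of 0.908 in limma. Of the 7 measured members of the class none passed limma or either DESeq2 fit, and their changes ran from -0.54 to 0.16 with a median of -0.28.

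Slc1a4 (ASCT1), which exchanges alanine, serine and cysteine, counted 1011, 2006 and 2068 in the controls and 1138, 1535 and 3170 in the knockdowns, and its values were chosen after they were seen. Its promoter window, chr11:20332664-20332963 (minus strand, GRCm38.p6), is shown for comparison with that of Slc7a11, with the same motif in capitals.
Slc1a4: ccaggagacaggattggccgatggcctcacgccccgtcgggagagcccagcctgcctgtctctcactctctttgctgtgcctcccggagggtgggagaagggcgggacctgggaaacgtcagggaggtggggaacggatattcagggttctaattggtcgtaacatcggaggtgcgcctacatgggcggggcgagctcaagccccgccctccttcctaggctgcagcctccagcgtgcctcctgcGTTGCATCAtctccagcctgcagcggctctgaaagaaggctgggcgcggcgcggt
Here the window held 1 match, on the other strand, 5 bases before the start site. The log2 change of Slc1a4 was 0.13 (SE 0.45, adjusted p = 0.973 in limma).

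Carriers of the Slc6 family use sodium and chloride. The taurine carrier Slc6a6 counted 6978, 5097 and 6029 in the controls and 4882, 4172 and 8773 in the knockdowns, a change of -0.09 (SE 0.30, adjusted p = 0.973 in limma). The glycine carrier Slc6a9 counted 349.6, 1870 and 2260 in the controls and 338, 1096 and 2709 in the knockdowns, low in both replicate 1 libraries. Its change was -0.19 (SE 0.95), and at least 1258 of its exon bases are shared with Ccdc24 on the opposite strand. The creatine carrier Slc6a8, chosen after its values were seen, counted 872, 1035 and 957 in the controls and 966, 2191 and 1579 in the knockdowns. Each knockdown was above the control of its number, and the change was 0.65 (SE 0.31, adjusted p = 0.701 in limma, 0.0756 in blocked DESeq2), or 0.90 with an adjusted p of 0.0478 in limma on replicates 2 and 3 only. Slc6a15, a neutral amino acid carrier best known from brain, was low at 34.0 to 97.8.

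Lysosomes release amino acids through Slc36a1 (PAT1) and sense arginine through Slc38a9. Slc36a1 counted 1080, 299.8 and 336 in the controls and 1223, 505 and 431 in the knockdowns. Each knockdown was above its control and both replicate 1 libraries were above the other 4, while the change of 0.43 (SE 0.60, adjusted p = 0.912 in limma) passed no test. Slc36a4, a related carrier, ran from 236 to 627 with a change of -0.17, and Slc38a9 from 203 to 289 with -0.24. Slc43a3, counted apart because its substrates are nucleobases, was the lowest member per length, ran from 3.74 to 24.0 and got no adjusted p in the blocked DESeq2 fit.

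Per length, the most abundant members were Slc3a2 (92.5 ± 25.9 for shCtrl, 82.2 ± 22.7 for shJag1, SD, n = 3 each), Slc1a5 (79.5 ± 12.6 and 64.6 ± 6.85), Slc7a5 (68.9 ± 6.88 and 75.2 ± 31.0), Slc38a2 (59.2 ± 34.3 and 40.7 ± 29.9) and Slc6a6 (26.8 ± 5.55 and 26.2 ± 11.2). Neighbours in this order overlapped within their SD. Together the 5 made up 65.4% to 68.9% of the summed level of the members in every library. The members called in blocked DESeq2 stood lower, with Slc7a11 at 11.4 ± 6.58 in controls, Slc7a2 at 0.577 ± 0.318 and Slc43a2 at 0.368 ± 0.132.

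**Figure D4:**
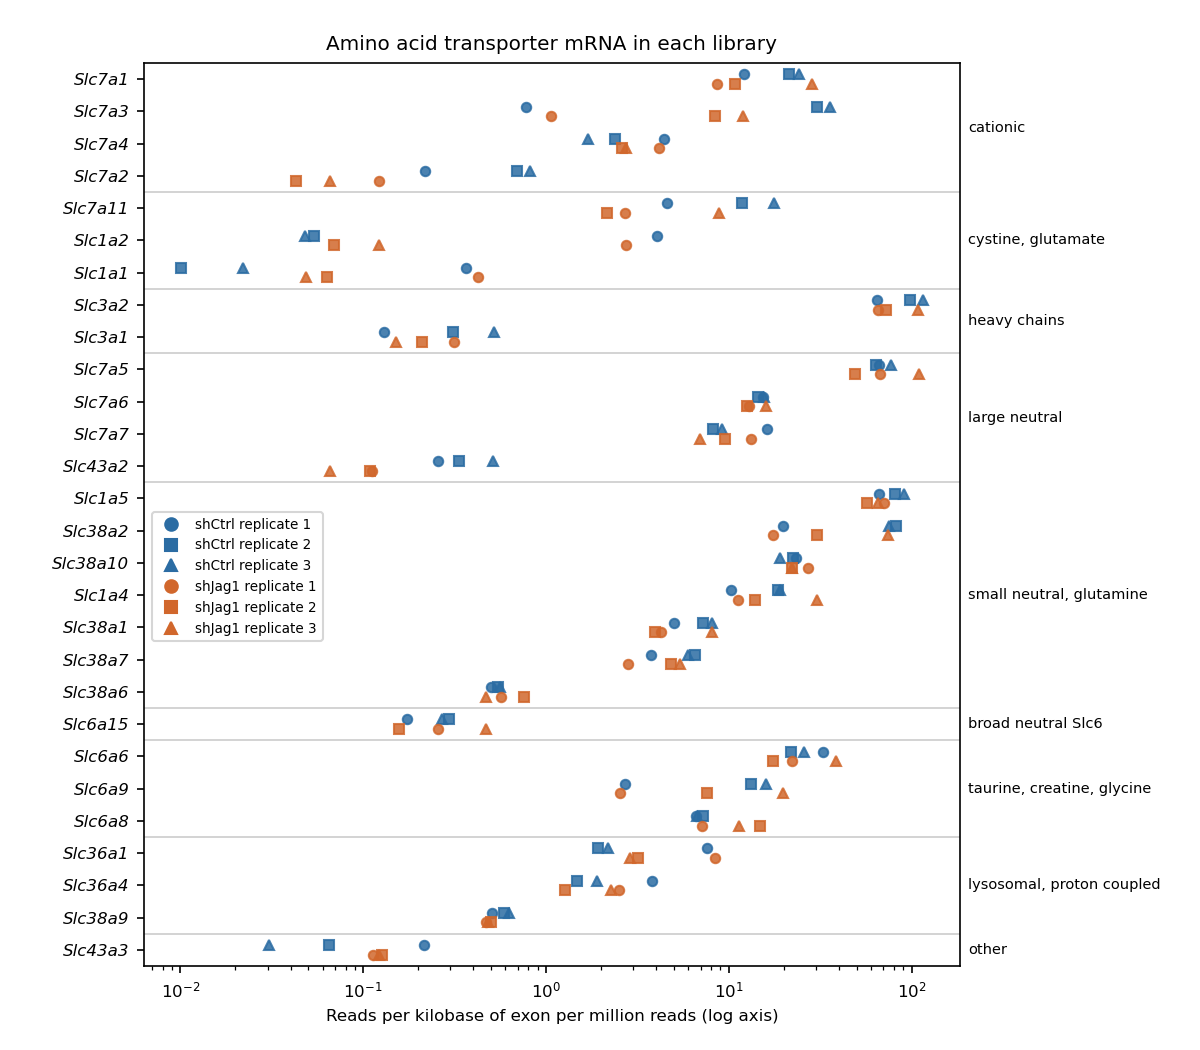
Reads per kilobase of exon per 1000000 gene reads (horizontal axis, logarithmic) of each of the 28 transporter genes in each library, grouped by substrate class, with controls above knockdowns in each row. Slc3a2, Slc1a5 and Slc7a5 stand highest, and both replicate 1 libraries (circles) of Slc7a3 and Slc1a2 lie away from the other 4.

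Replicate 1 stood apart by more than 2-fold from the mean of replicates 2 and 3, in both groups, for 9 members. Slc1a1, Slc1a2 and Slc36a1 were above, against 3.77% of all tested genes, and Slc1a4, Slc38a2, Slc6a9, Slc7a1, Slc7a11 and Slc7a3 were below, against 7.89%. Slc1a2 was 71.9-fold higher in control 1 than the mean of controls 2 and 3 and 27.1-fold higher in knockdown 1 than that of knockdowns 2 and 3. Slc7a3 was 46.7-fold and 10.1-fold lower in replicate 1. The labels do not say what set that replicate apart, and its part in these values was not tested.

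**Figure D5:**
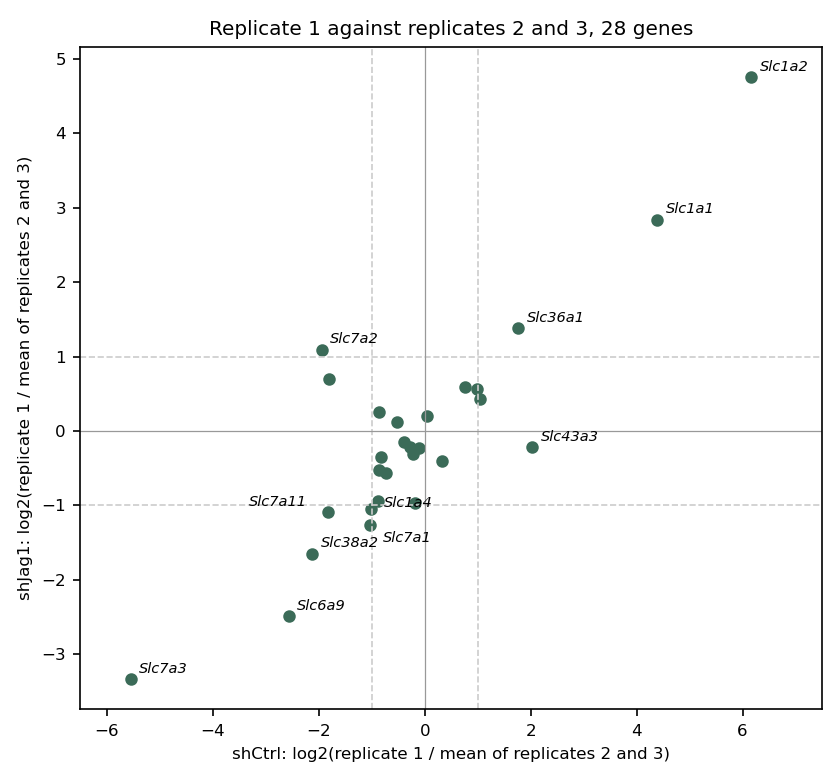
Log2 ratio of replicate 1 to the mean of replicates 2 and 3, in the controls (horizontal axis) and in the knockdowns (vertical axis), 1 point per member, with dashed lines at 2-fold. Slc1a2 and Slc1a1 lie at the upper right and Slc7a3, at 46.7-fold and 10.1-fold lower, at the lower left.

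Other genes of amino acid supply were taken from 5 lists, of which 57 of 61 genes were tested. In limma and edgeR none passed, with 2 at an unadjusted p under 0.05 in each, against 7.29% of all genes, and in blocked DESeq2 3 rose and 2 fell, against the 4.57% and 2.58% of all genes given above. Of the 20 genes of the amino acid shortage response, which Gcn2 and Atf4 run, Nupr1, Ddit4 and Ddit3 rose and Atf5 fell in that fit, and 16 passed in neither direction. In blocked DESeq2 without pair 1 those calls held, and Phgdh (-0.97, adjusted p = 9.76e-05), Cebpb (-0.91, 0.000415) and Aldh1l2 (-0.80, 0.0140) were also lower. That fit called 6.23% of all genes lower and 8.97% higher. On replicates 2 and 3 only, limma called Atf5, Phgdh and Cebpb lower and Ddit3 and Nupr1 higher, against 3.57% and 6.04% of all genes. Only the call of Nupr1 held without pair 2 (adjusted p = 0.00477 in blocked DESeq2) and without pair 3 (0.0188), where those of Ddit4, Ddit3 and Atf5 were lost. The list's median log2 change was -0.07.

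Nupr1, a stress-induced chromatin protein, counted 735, 7988 and 5281 in the controls and 1717, 14826 and 12155 in the knockdowns, higher in each pair, and changed by 1.11 (SE 0.17, adjusted p = 9.67e-08) in blocked DESeq2. Ddit4, an inhibitor of mTORC1, rose by 0.87 (SE 0.27, adjusted p = 0.0267 in blocked DESeq2) and Ddit3, which encodes the transcription factor CHOP, by 0.85 (SE 0.23, adjusted p = 0.00698 in the same fit). Atf5, a transcription factor made under stress, counted 913, 10054 and 10129 in the controls and 1002, 2220 and 4143 in the knockdowns. It fell by 1.12 in blocked DESeq2 (SE 0.37, adjusted p = 0.0397), was higher than its control in replicate 1 and lower in replicates 2 and 3. Atf4 mRNA, chosen after its values were seen, counted 7181, 16514 and 15396 in the controls and 8930, 10246 and 17665 in the knockdowns. In limma without 1 library, the change of Nupr1 ran from 0.059 (without control 1) to 2.09 (without knockdown 1), that of Atf5 from -2.27 (without control 1) to -0.53 (without control 3) and that of Ddit4 from 0.35 (without knockdown 2) to 1.33 (without knockdown 1).

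None of the 11 tested genes of cystine use and glutathione, with a median of 0.12, the 7 of glutamine and glutamate, with a median of -0.06, or the 5 of arginine and ornithine, with a median of -0.06, passed limma, edgeR or DESeq2 with or without the replicate term on all 6 libraries. On replicates 2 and 3 only, limma called the cysteine-forming enzyme Cth lower (-1.45, adjusted p = 0.0289) and the arginine-forming enzyme Ass1 higher (1.58, adjusted p = 0.035). In that setting 3.57% of all genes were called lower and 6.04% higher. Blocked DESeq2 without pair 1 called Cth, Cbs and Gpt2 lower and Gls2 higher, against 6.23% and 8.97% of all genes. The largest by count were the glutathione reductase Gsr (change -0.14), the thioredoxin reductase Txnrd1 (0.16), the glutamate dehydrogenase Glud1 (-0.04), the aspartate transaminase Got2 (-0.06), the ornithine aminotransferase Oat (-0.18) and the ornithine decarboxylase Odc1 (-0.06). Of the 14 genes of amino acid sensing by mTORC1, Sesn3, a sestrin that restrains mTORC1, fell by 0.70 (SE 0.20, adjusted p = 0.00967 in blocked DESeq2), with 1244, 953 and 939 in the controls and 810, 514 and 617 in the knockdowns, and the groups did not overlap. Its call was lost in that fit without pair 2 (adjusted p = 0.866) and without pair 3 (0.418).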

How the data were processed

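RNA-seq libraries of 6 samples, 3 per group, were used, and groups come from the sample titles. The deposited values are normalised read counts, a signal per gene and library for which the authors divided reads by 1 size factor per library. Within 0.001 of a read all values were whole multiples of 1 step, so reads were recovered. The submitters' processing notes list STAR 2.5.2b, DESeq2 1.32.0 and GRCm38, and the counting tool is not given in the sources used here. Libraries were made with a TruSeq RNA kit, per the labels' protocols, without strand information. The 6 deposited tables were identical and 5 were left out as copies.

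The main test was limma-trend (limma 3.58.1, R 4.3.3) on log2 values after adding a pseudocount of 1. It covered the 13997 genes that reached 10 normalised counts in 3 or more libraries, adjusted by Benjamini-Hochberg over all of them, and a call needed an adjusted p below 0.05. edgeR 4.0.16 and DESeq2 1.42.0 on recovered reads were alternatives, each also with the replicate number as a term. Scripts were tested on simulated data. Deviations of same-numbered libraries from their group means correlated at r = 0.68, 0.57 and 0.44 across genes, above the threshold of 0.1, while the crossed numbers 2 and 3 also passed it (r = 0.385 and 0.365). Genes named by rule were Jag1, Slc7a2, Slc7a3, Slc7a11, called members and the 2 most abundant members of each class, and from each other list up to 3 called genes or the 2 most abundant. Genes named beyond this rule, such as Slc1a1, Slc1a4, Slc6a8, Slc7a4, Slc7a7, Slc38a9, Ddit3 and Atf4, were named with their values known. Promoter sequences are from RefSeq (GRCm38.p6), and gene positions from GENCODE M21. The members and lists were chosen with earlier results of these data known.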

Additional observations from a re-analysis of the deposited data

How the results depend on the processing

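Among the 28 members, 0 rose and 0 fell in limma, and these counts were also 0 with edgeR, with the replicate block in limma or edgeR, with a pseudocount of 5, with no filter and with a filter of 50. DESeq2 called 2 lower, DESeq2 with the replicate block 3 lower, spike-in scaling 1 lower (Slc7a2) and limma on replicates 2 and 3 only 3 lower and 1 higher. Added after seeing the data, DESeq2 with the replicate block and without pair 1 called 4 lower and 1 higher, without pair 2 it called 0, and without pair 3 it called 1 lower (Slc7a11). Leaving out each library in limma gave 0 to 1 lower, the 1 being Slc7a2 without control 1. Of the 57 other genes, 3 rose and 2 fell in DESeq2 with the replicate block, against 4.57% and 2.58% of all genes. In limma on replicates 2 and 3 only, 3 rose and 4 fell, against 6.04% and 3.57%. In DESeq2 with the replicate block and without pair 1, 4 rose and 8 fell, against 8.97% and 6.23%. In the same fit 1 rose without pair 2, against 0.457%, and 1 without pair 3, against 0.607%. Jag1 passed with -1.02 in DESeq2 with the replicate block and -1.11 in the same fit without pair 1, but not without pair 2 (-0.74, adjusted p = 0.738) or pair 3 (-1.23, adjusted p = 0.0894).

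Directions of the genes named by the rule turned as follows, and the cause was not tested. Spike-in scaling gave Slc6a15 -0.0049, Slc7a5 -0.12 and Txnrd1 -0.021. Replicates 2 and 3 only gave Slc6a15 -0.048, Slc36a4 0.019, Slc6a6 0.13 and Glud1 0.0096. Blocked DESeq2 without pair 1 gave Slc6a15 -0.033, Slc36a4 0.018, Slc6a6 0.12 and Glud1 0.0043, without pair 2 Slc6a6 0.00799 and Slc6a9 0.10, and without pair 3 Slc6a15 -0.12, Slc1a2 -0.18, Slc3a1 0.39 and Slc7a5 -0.13. Of the other members in these blocked DESeq2 fits, Slc38a6 was -0.038 without pair 2, and Slc1a4 was -0.10 and Slc7a7 0.012 without pair 3. Spike-in scaling also turned members not named here, with 22 below 0 against 17 in limma. Slc1a2 was -0.47 in edgeR and -0.45 in DESeq2. Over the 6 fits without 1 library, changes ran from -2.82 to 0.12 for Slc7a3, -0.23 to 0.51 for Slc6a15, -1.21 to 2.40 for Slc1a2, -0.44 to 0.0505 for Slc3a2, -0.88 to 0.11 for Slc3a1, -0.24 to 0.30 for Slc7a5, -0.034 to 1.02 for Slc36a1, -0.44 to 0.18 for Slc36a4, -0.41 to 0.13 for Slc6a6, -1.04 to 0.60 for Slc6a9, -0.16 to 0.038 for Glud1, -0.19 to 0.0046 for Got2, -1.09 to 0.72 for Oat and -0.26 to 0.12 for Odc1. Slc7a2 (-3.38 to -2.37), Slc43a2 (-2.16 to -1.59) and Slc7a11 (-2.01 to -0.95) stayed below 0.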
